A study of Mus musculus with 16 samples.

Results

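The heat shock proteins and their cochaperones are described here in mouse stem cell derived macrophages exposed to bacterial lipopolysaccharide (LPS) or to heme bound to albumin. The members are 37 genes taken by name: the Hsp70 and Hsp110 chaperones, the Hsp90 pair, the small heat shock proteins, the mitochondrial chaperonin, the J-domain cochaperones, the other cochaperones, and the transcription factors Hsf1 and Hsf2. They are 37 of the 20659 gene symbols that the array's probes could be given. A probe was matched for 36 of them, and 35 passed the filter on dim probes, out of 12759 genes that did. No probe was matched to Hspa1b, and Hspb8, a small heat shock protein, was not well above background on enough arrays of any group.

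Total RNA of 4 independent biological replicates per group was hybridised to 16 two-colour Agilent arrays, with the sample in red (Cy5) and untreated reference RNA in green (Cy3). The LPS group received LPS at 10 ng/mL for 8 h, and the heme-albumin groups received 50 or 200 µM heme-albumin for 8 h. The Control group was untreated, is labelled with an incubation of 0 h, and carried untreated RNA in both colours. Incubation for 8 h and treatment therefore cannot be told apart in any comparison with Control, and neither can group and position on the slide, since each position held a single group. The series asks whether heme triggers inflammation as LPS does.

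Heat shock proteins bind unfolded or aggregating proteins and help them to fold, to be held, or to be passed on for degradation. Hsp70 works in a cycle of ATP hydrolysis in which J-domain proteins bring in the client, Hsp110 and Bag proteins exchange the nucleotide, and adaptors such as Stip1 hand the client on to Hsp90. The inducible genes are driven mainly by Hsf1, which binds inverted repeats of a short GAA unit, and in macrophages extracellular and intracellular Hsp70 has long been studied beside inflammatory signalling.

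Of the probes on each array, 49.9% to 59.4% were well above background in red, and between 188 and 690 spots per array were dropped as outliers. All 8 macrophage markers with a probe were well above background on all 16 arrays, and so were Nanog of 5 embryonic stem cell markers, Tpsb2 of 4 mast cell markers, Cd3e of 5 T or B cell markers, Cd34 of 4 hematopoietic progenitor markers, Camp and Elane of 5 neutrophil markers with a probe, and Siglech of 5 dendritic cell markers. On none were 3 embryonic stem cell markers, 3 mast cell markers, 3 T or B cell markers, 2 of 3 erythroid markers with a probe, 1 dendritic cell marker and 1 of 4 fibroblast markers. After LPS, Camp (2.19), the dendritic cell marker Ccr7 (6.44, with 1 Control array well above background) and the fibroblast marker Dcn (well above background on 4 LPS arrays and 0 Control arrays) were called higher on the log2 scale, and Cd34 (-2.22) lower. Of the macrophage markers, Fcgr1 (3.14), Cd14 (2.66) and Adgre1 (1.17) were called higher after LPS. None of these lists had a called gene after heme-albumin at 200 µM, apart from 2 of the macrophage markers, Fcgr1 (-1.58) and Mertk (-1.04), both lower. The part of other cell types in the results on the members was not tested. Hmox1, the heme-degrading enzyme, and Tnf, an inflammatory cytokine, were both called after LPS and after 200 µM heme-albumin. Replicates a and b were scanned on 1 day and replicates c and d on another, with all 4 groups on each slide. The scan days coincide with different slides and with tags in the sample titles that the labels do not explain, so these cannot be told apart. As RNA came from bulk cultures, fewer cells expressing a gene and less RNA per cell cannot be told apart.

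After LPS, 9 members were higher and 1 was lower by at least 2-fold at an adjusted p under 0.05, which is the rule for a called gene (limma, adjusted over all 12759 genes). Values are log2 of red over green throughout, and a change is the difference of 2 group means on that scale with its standard error. The 9 were Hspa1a, Dnaja1, Dnaja2, Hspb1, Dnajb6, Hspa8, Dnajb1, Chordc1 and Dnajb2, and the lower member was Dnajb14. They make 25.7% and 2.86% of the 35 members, where 14.0% of all genes were called higher and 16.7% lower, so 28.6% of members and 30.7% of all genes were called in either direction. At an adjusted p under 0.05 of any size, 19 members were higher and 6 lower, against 34.5% and 44.3% of all genes. The members' median change was 0.39, against -0.09 over all genes. The 4 LPS arrays lay wholly above the 4 Control arrays for 19 members and wholly below for 6, where 31.3% and 41.0% of all genes did so.

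**Figure D1:**
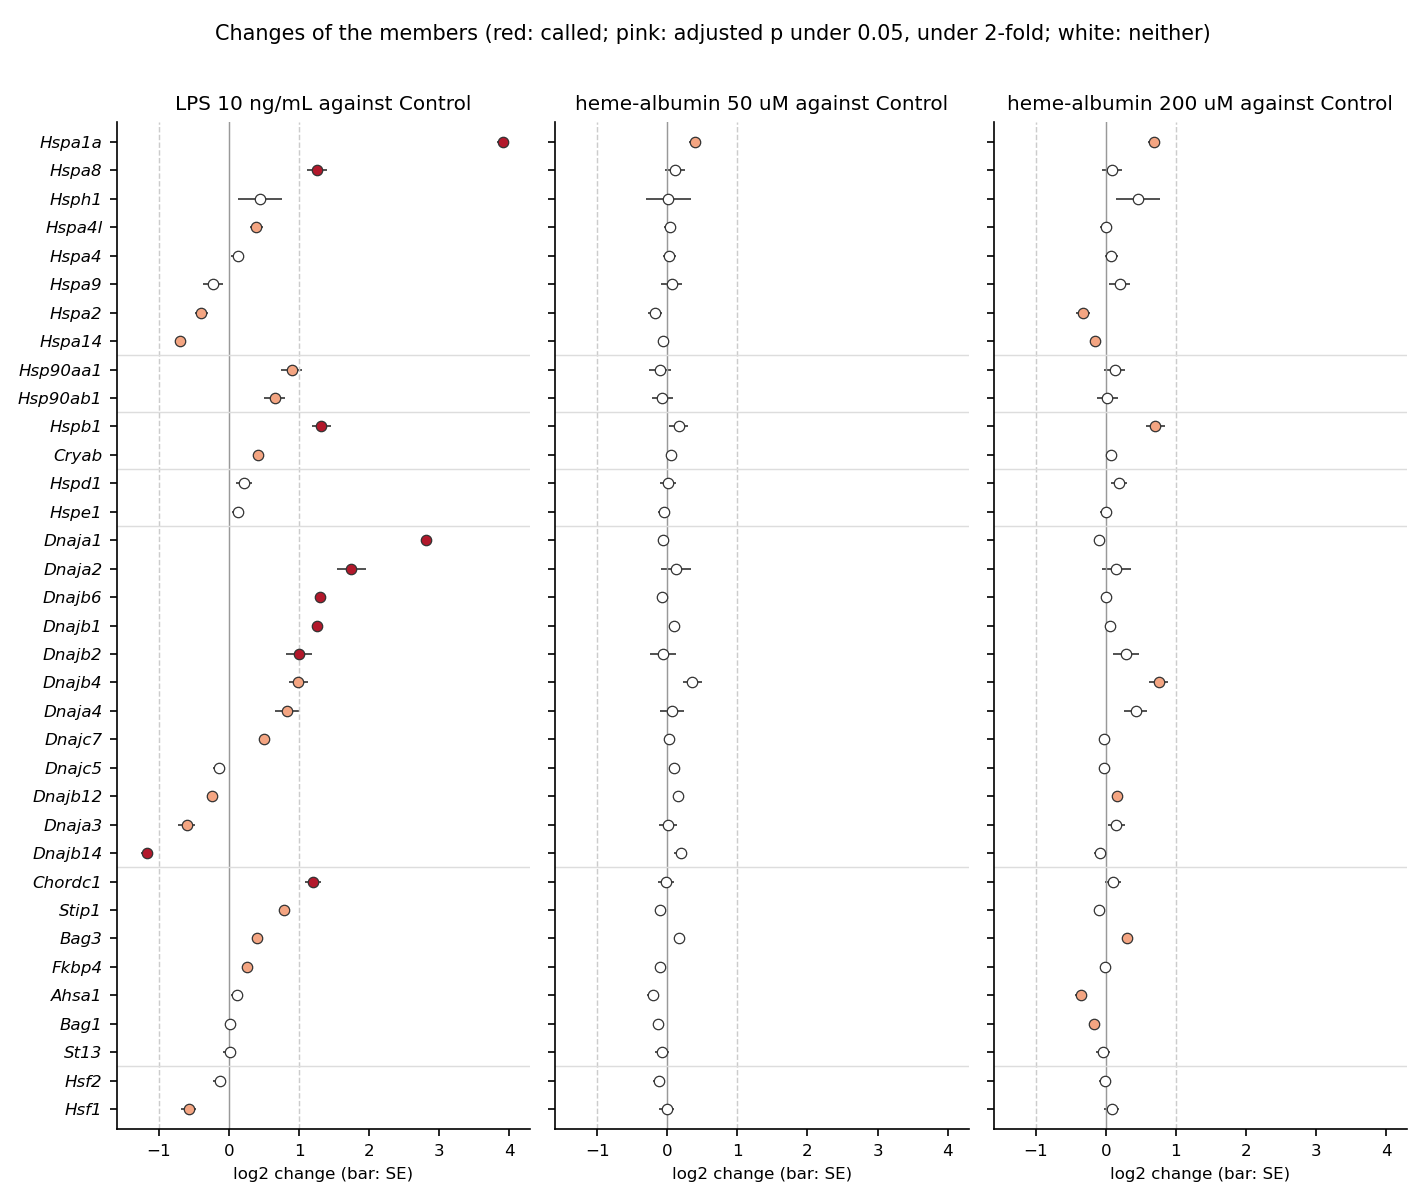
Changes of the 35 members against Control on the log2 scale for LPS, 50 µM heme-albumin and 200 µM heme-albumin, with bars of 1 standard error, ordered by role. Dark red points are called genes, pale points have an adjusted p under 0.05 at less than 2-fold, and white points neither. The called points all lie in the LPS panel, 9 above 0 and 1 below.

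Among the Hsp70 and Hsp110 genes, 2 of 8 measured members were called higher after LPS and none lower, with a median change of 0.26. Hspa1a encodes the inducible cytosolic Hsp70, and Hspa1b is its near-identical neighbour, so the Hspa1a probe's signal cannot be told apart from Hspa1b RNA. The 250 bases upstream of both genes are shown because they differ at so few positions: 247 of 250 bases, or 98.8%, are identical (RefSeq, GRCm38.p6, both on the minus strand, Hspa1a at chr17:34972157-34972406 and Hspa1b at chr17:34959239-34959488). Capitals mark a pair of inverted heat shock units, GAANNTTC or TTCNNGAA, each of which is its own reverse complement.
Hspa1a: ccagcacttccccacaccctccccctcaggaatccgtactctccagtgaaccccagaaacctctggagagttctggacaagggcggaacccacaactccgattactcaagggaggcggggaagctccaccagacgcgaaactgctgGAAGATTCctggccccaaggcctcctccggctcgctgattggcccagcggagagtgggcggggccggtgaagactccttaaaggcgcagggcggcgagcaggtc
Hspa1b: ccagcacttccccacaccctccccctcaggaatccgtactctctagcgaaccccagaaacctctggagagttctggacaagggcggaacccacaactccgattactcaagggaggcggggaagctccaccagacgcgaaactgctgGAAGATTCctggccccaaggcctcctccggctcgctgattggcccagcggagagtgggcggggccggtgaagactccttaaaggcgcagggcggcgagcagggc
Each window holds 1 such pair, GAAGATTC. Hspa1a read 3.92, 3.94, 3.97 and 4.04 on the LPS arrays, against 0.06, 0.16, 0.07 and -0.09 on the Control arrays. The LPS arrays lay within a narrow band far above all Control arrays. The change was 3.92 ± 0.0857 (SE, n = 4 arrays per group), or 15.1-fold, with an adjusted p of 1.39e-14.

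Hspa8, the constitutive cytosolic Hsp70, read 1.64, 1.43, 0.82 and 0.94 on the LPS arrays, against -0.01, -0.21, -0.01 and 0.05 on the Control arrays. All LPS arrays were above all Control arrays, and replicates a and b were higher than c and d. Its change was 1.25 ± 0.143, or 2.38-fold (adjusted p = 1.18e-06). On the second scan day alone it was 0.86, which is under 2-fold. Its 3 probes gave changes between 1.05 and 1.25.

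The other members of the family moved less. Hspa14, a ribosome-associated Hsp70, fell by 0.70 on the log2 scale after LPS (adjusted p = 2.37e-09), and Hspa2, the Hsp70 known best from testis, fell by 0.39 (adjusted p = 0.0017). Hspa4l, an Hsp110 nucleotide exchange factor, rose by 0.39 (adjusted p = 0.00111). Mitochondrial Hspa9 had a change of -0.23 (adjusted p = 0.17) and the Hsp110 gene Hspa4 one of 0.13 (adjusted p = 0.221). After normexp background correction of the median signals Hspa4 passed (0.25, adjusted p = 0.00917), and likewise without background subtraction (0.26, adjusted p = 0.00735). Its change was -0.08 on the second scan day and 0.33 on the first (adjusted p of the difference 0.0133). The other 2 probes of Hspa4, both dimmer, gave -0.49 and -0.29. Hsph1, the inducible Hsp110, read 1.33, 1.14, -0.39 and -0.46 on the LPS arrays, against -0.08, 0.06, -0.04 and -0.08 on the Control arrays, values shown here because its arrays were seen to split. Replicates a and b stood above all Control arrays and replicates c and d below them all. The mean change of 0.44 ± 0.317 (adjusted p = 0.215) therefore describes none of the 4 arrays.

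**Figure D2:**
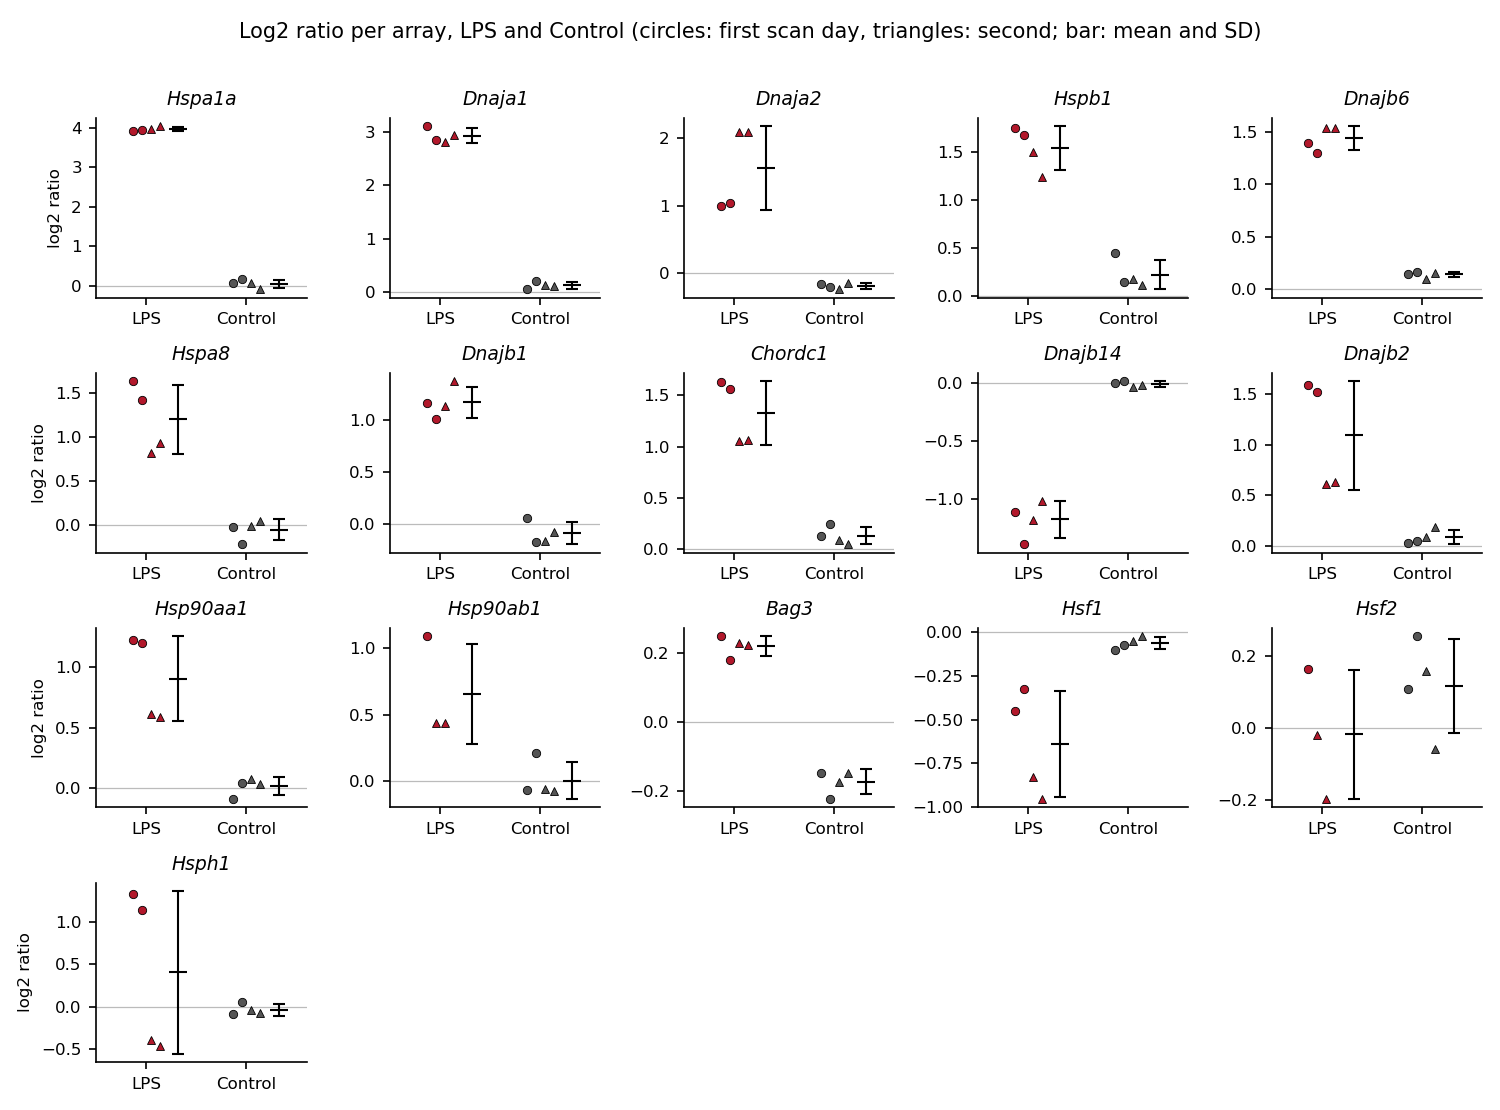
Log2 of red over green on each array for 16 members, with LPS left of Control, circles for the first scan day, triangles for the second, and the mean ± SD beside them. Hspa1a and Dnaja1 stand far above Control on all 4 LPS arrays, Dnajb14 lies below Control on all 4, and Hsph1 lies on both sides of Control.

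In the main fit the 2 Hsp90 genes rose after LPS by less than 2-fold. Hsp90aa1, the inducible cytosolic isoform, read 1.23, 1.20, 0.61 and 0.59 on the LPS arrays, against -0.10, 0.04, 0.07 and 0.03 on the Control arrays. Its LPS arrays were all above its Control arrays, with a and b about alike and c and d about alike. The change was 0.89 ± 0.155 (adjusted p = 8.7e-05). It was 1.03, past 2-fold, both after normexp background correction and without background subtraction. By scan day it was 0.55 on the second and 1.24 on the first. Hsp90ab1, the constitutive isoform, read 1.09, 0.44 and 0.43 on LPS replicates b, c and d, against -0.07, 0.21, -0.06 and -0.08 on the Control arrays, with LPS replicate a dropped from the fit as an outlier spot. The 3 LPS arrays lay above all Control arrays, and the change was 0.65 ± 0.147 (adjusted p = 0.0015). By scan day it was 0.50 on the second and 1.02 on the first, where LPS replicate b alone was left.

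Of the small heat shock proteins, which hold unfolded proteins without ATP, Hspb1 was called and Cryab rose by less. Hspb1 (Hsp25 of the mouse) read 1.75, 1.67, 1.50 and 1.24 on the LPS arrays, against 0.45, 0.15, 0.17 and 0.12 on the Control arrays. All LPS arrays stood above all Control arrays, and Control replicate a was high beside the other Control arrays. The change was 1.32 ± 0.137, or 2.49-fold (adjusted p = 4.53e-07), and 0.92 after normexp background correction of the median signals, which is under 2-fold. Its upstream window (RefSeq, GRCm38.p6, chr5:135887669-135887918, plus strand) is shown because it holds 2 pairs, again in capitals.
Hspb1: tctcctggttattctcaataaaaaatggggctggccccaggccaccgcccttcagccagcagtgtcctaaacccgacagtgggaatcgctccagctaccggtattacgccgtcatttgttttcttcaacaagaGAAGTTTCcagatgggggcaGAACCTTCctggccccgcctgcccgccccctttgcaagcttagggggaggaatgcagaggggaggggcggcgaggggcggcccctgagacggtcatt
Cryab, alpha-B crystallin, rose by 0.41 (adjusted p = 1.81e-05), while its dimmer second probe gave -0.02. As the mean of its probes it was 0.20 (adjusted p = 0.0483), and in red alone it did not pass (0.48, adjusted p = 0.229).

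The mitochondrial chaperonin, in which Hspd1 (Hsp60) forms the barrel and Hspe1 (Hsp10) its lid, had no member that passed the test after LPS. Hspd1 had a change of 0.21 (adjusted p = 0.0991) and Hspe1 one of 0.12 (adjusted p = 0.204). After normexp background correction of the median signals both passed, with 0.39 (adjusted p = 0.00706) and 0.33 (adjusted p = 0.00198), and likewise without background subtraction. The dimmest of the 3 Hspe1 probes gave 0.53. Both genes differed between scan days, with 0.02 on the second day and 0.41 on the first for Hspd1 (adjusted p of the difference 0.00894), and -0.10 and 0.35 for Hspe1 (adjusted p = 0.000911). The genes stand head to head and share an upstream region that holds a run of alternating TTC and GAA units, shown as 30 bases because the run matches the triple motifs GAANNTTCNNGAA and TTCNNGAANNTTC, which few promoters hold (Hspe1, chr1:55088053-55088082, plus strand, RefSeq, GRCm38.p6). Capitals mark the run.
Hspe1: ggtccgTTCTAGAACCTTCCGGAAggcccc

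The J-domain cochaperones, which stimulate the Hsp70 ATPase and choose its clients, held 5 of the 9 members called higher and the 1 called lower, of 12 measured, with a median change of 0.91. Dnaja1, a class A partner of cytosolic Hsp70, read 3.11, 2.85, 2.81 and 2.95 on the LPS arrays, against 0.05, 0.20, 0.13 and 0.11 on the Control arrays. The groups were far apart on every slide. The change was 2.81 ± 0.0738, or 7.01-fold (adjusted p = 9.17e-14), and a second probe gave 2.27.

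Dnaja2, another class A partner, read 0.99, 1.05, 2.10 and 2.10 on the LPS arrays, against -0.16, -0.21, -0.24 and -0.15 on the Control arrays. All LPS arrays were above Control, and here replicates c and d were the higher ones. Its change was 1.75 ± 0.211, or 3.36-fold (adjusted p = 2.3e-06), with 1.18 from its other probe. Dnaja4, the third class A gene that rose, changed by 0.83 (adjusted p = 0.000331). Dnaja3, the mitochondrial member of the class, fell by 0.61 (adjusted p = 0.000367).

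In class B, Dnajb1, the classical Hsp40 of the heat shock response, read 1.16, 1.01, 1.13 and 1.37 on the LPS arrays, against 0.06, -0.17, -0.16 and -0.07 on the Control arrays. The groups did not overlap and the spread was alike in both. The change was 1.25 ± 0.071, or 2.38-fold (adjusted p = 4.25e-10). Dnajb6, known for holding back aggregation of polyglutamine proteins, read 1.40, 1.30, 1.53 and 1.54 on the LPS arrays, against 0.15, 0.16, 0.10 and 0.16 on the Control arrays. Its Control arrays were nearly alike and all its LPS arrays lay well above them. The change was 1.30 ± 0.0515, or 2.46-fold (adjusted p = 7.51e-12), and its probes ranged from 0.78 to 1.32.

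Dnajb2, a J protein that also binds ubiquitin chains, read 1.59, 1.53, 0.62 and 0.64 on the LPS arrays, against 0.02, 0.05, 0.09 and 0.19 on the Control arrays. All LPS arrays were above Control, with replicates a and b well above c and d. The change was 1.01 ± 0.186, or 2.01-fold (adjusted p = 0.000164). Leaving out replicate a of every group gave 0.82 and leaving out replicate b gave 0.85, both under 2-fold, and on the second scan day alone it was 0.49. It was also just under 2-fold after normexp (0.95), without background subtraction (0.98) and as the mean of its probes (0.95). Dnajb4, a close relative of Dnajb1, rose by 0.99 (adjusted p = 1e-05), just under 2-fold.

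Dnajb14, which sits in the endoplasmic reticulum membrane with its J-domain towards cytosolic Hsp70, read -1.12, -1.39, -1.18 and -1.02 on the LPS arrays, against 0.00, 0.02, -0.03 and -0.02 on the Control arrays. All LPS arrays lay below all Control arrays by a similar distance. The change was -1.17 ± 0.0921, that is 2.25-fold lower (adjusted p = 1.84e-08), and -0.95 after normexp or without background subtraction, which is under 2-fold. Its relative in the same membrane, Dnajb12, fell by 0.24 (adjusted p = 0.00016). Dnajc7, which binds both Hsp70 and Hsp90, rose by 0.49 (adjusted p = 1.01e-05). Dnajc5, the cysteine string protein of secretory vesicles, had -0.15 (adjusted p = 0.0964) from its brightest probe, whereas its other probes gave 0.75 and 0.83. Its brightest probe was lower on the LPS array of all 4 slides, and passed with the replicate letter as a block (adjusted p = 0.0162), but its change was 0.04 after normexp and 0.18 in red alone, neither of which passed.

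The windows upstream of the 3 J-domain genes Dnajb6, Dnaja1 and Dnajb1 are printed because all 3 were called and they differ in these motifs. They lie at chr5:29735648-29735897, chr4:40722218-40722467 and chr8:83607925-83608174, all on the plus strand (RefSeq, GRCm38.p6). Capitals again mark pairs.
Dnajb6: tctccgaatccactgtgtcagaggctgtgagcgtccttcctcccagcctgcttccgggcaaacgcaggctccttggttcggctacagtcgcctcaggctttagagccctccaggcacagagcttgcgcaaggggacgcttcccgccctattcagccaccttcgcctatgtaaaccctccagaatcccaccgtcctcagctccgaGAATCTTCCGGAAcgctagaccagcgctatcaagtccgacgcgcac
Dnaja1: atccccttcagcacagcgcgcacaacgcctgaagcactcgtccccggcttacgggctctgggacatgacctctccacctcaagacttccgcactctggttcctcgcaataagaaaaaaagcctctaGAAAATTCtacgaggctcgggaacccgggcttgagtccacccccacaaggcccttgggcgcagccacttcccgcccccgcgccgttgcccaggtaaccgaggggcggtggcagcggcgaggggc
Dnajb1: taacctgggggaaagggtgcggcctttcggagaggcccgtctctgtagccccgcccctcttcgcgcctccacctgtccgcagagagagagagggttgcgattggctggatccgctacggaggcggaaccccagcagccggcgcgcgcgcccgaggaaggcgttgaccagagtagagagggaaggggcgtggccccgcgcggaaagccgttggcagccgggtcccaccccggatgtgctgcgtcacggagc
In these printed windows Dnajb6 holds a triple, Dnaja1 a pair, and Dnajb1 has no match. The other windows of Dnaja1 and Dnajb1 held no pair.

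The remaining cochaperones had 1 called member of 7 after LPS, and 3 more that rose by less than 2-fold. Chordc1 (morgana), which binds Hsp90, read 1.63, 1.56, 1.06 and 1.07 on the LPS arrays, against 0.13, 0.25, 0.09 and 0.06 on the Control arrays. The groups did not overlap, and a and b were the higher replicates. The change was 1.20 ± 0.117, or 2.29-fold (adjusted p = 2.3e-07), and 0.99 on the second scan day alone, which is under 2-fold. Stip1 (Hop), the adaptor between Hsp70 and Hsp90, rose by 0.78 (adjusted p = 2.31e-10), and Fkbp4, an Hsp90-bound immunophilin of steroid receptors, by 0.26 (adjusted p = 0.000507).

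Bag3, a nucleotide exchange factor that directs Hsp70 clients to autophagy, read 0.25, 0.18, 0.23 and 0.23 on the LPS arrays, against -0.15, -0.22, -0.17 and -0.15 on the Control arrays. The groups were each within a narrow band and did not overlap. The change of 0.39 ± 0.0676 (adjusted p = 7.98e-05) was a small one that every slide showed. Bag1, St13 (Hip) and Ahsa1, an activator of the Hsp90 ATPase, had changes of 0.01, 0.01 and 0.12 and did not pass the test in the main fit. St13 changed by -0.21 on the second scan day and 0.23 on the first (adjusted p of the difference 0.00476). It passed after normexp (0.20, adjusted p = 0.0299) and without background subtraction (0.21, adjusted p = 0.0187). Ahsa1 passed in red alone (0.24, adjusted p = 0.0318).

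The heat shock factors did not rise after LPS. Hsf1, the main activator of the inducible genes, read -0.45, -0.32, -0.83 and -0.96 on the LPS arrays, against -0.10, -0.07, -0.05 and -0.02 on the Control arrays. All LPS arrays were below all Control arrays. The change was -0.58 ± 0.107 (adjusted p = 0.000165), which concerns the RNA and not the activity of the protein. Hsf2 read 0.16, -0.02 and -0.20 on LPS replicates b, c and d, with replicate a dropped as an outlier spot, against 0.11, 0.26, 0.16 and -0.06 on the Control arrays. Its groups overlapped, with a change of -0.14 (adjusted p = 0.175).

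Over all members, RefSeq held 39 windows of 250 bases upstream of a start for 29 genes, some of them overlapping windows of 1 gene or of neighbouring genes. The pair, searched as GAANNTTC or TTCNNGAA on both strands, was in 13 of them (33.3%), against 12.8% of the 32841 windows of all genes. It fell in windows of 11 genes: Hspa1a, Hspa1b, Hsph1, Hspb1, Hspd1, Hspe1, Dnaja1, Dnaja4, Dnajb4, Dnajb6 and Fkbp4. The triple, GAANNTTCNNGAA or TTCNNGAANNTTC, which contains pairs, was in 4 windows (10.3%) of Hspd1, Hspe1 and Dnajb6, against 0.466% of all windows. The Hspd1 and Hspe1 windows with it overlap on opposite strands, and the Dnajb6 windows overlap each other, so the 4 are not separate sites. Some windows with a pair overlap likewise, and those of Hspa1a and Hspa1b are near-identical. Both shares therefore count windows and not separate sites. Of the 10 measured members with a pair, 4 were called higher after LPS, with a median change of 0.91 and a range of 0.12 to 3.92. Among the 17 measured members with a window and no pair, 4 were called higher, with a median of 0.13 and a range of -1.17 to 1.75. The 3 genes with a triple are too few to compare, and Hspd1 and Hspe1 among them share an upstream region. Of the 3 measured members with a triple, 1 was called higher, with a median change of 0.21 and a range of 0.12 to 1.30. Among the 24 measured members with a window and no triple, 7 were called higher, with a median of 0.42 and a range of -1.17 to 3.92. The share of all genes called with or without a motif was not counted, so these counts are not a result about the motifs. Hspa8, Hspa9, Hsp90aa1, Hsp90ab1, Cryab, Dnajc5, St13 and Hsf1 were measured but had no window. These are descriptions of the letters in the windows.

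The size of the LPS change differed between the scan days for many members. By limma's interaction of group and scan day, 18 of 35 members differed at an adjusted p under 0.05, where 33.6% of all genes did. For 24 members the change was lower on the second scan day, and the median change was 0.26 on the second scan day and 0.41 on the first, against -0.13 and -0.06 over all genes. Hsph1 changed by -0.37 on the second day and 1.25 on the first, a difference of -1.61 ± 0.0972 (adjusted p = 4.9e-06). Dnajb2 changed by 0.49 on the second day and 1.53 on the first (adjusted p of the difference 7e-05). Dnaja2 went the other way, with 2.29 on the second day and 1.20 on the first (adjusted p = 0.000107). These 3 had the widest splits among the members.

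Several Hsp70 and Hsp90 members had a lower value on the second day. Hspa8 changed by 0.86 on the second day and 1.65 on the first (adjusted p = 0.000864), Hspa9 by -0.56 and 0.11 (adjusted p = 0.000403), and Hsp90aa1 by 0.55 and 1.24 (adjusted p = 0.0021). Hsf1 changed by -0.86 on the second day and -0.30 on the first (adjusted p = 0.000847). Hspa1a, with 4.02 on the second day and 3.82 on the first, Dnaja1 with 2.76 and 2.86, Dnajb1 with 1.37 and 1.14, and Hspb1 with 1.22 and 1.41 did not pass the test of a difference. Within each day, 7 members were called on the second and 15 on the first. Of the 9 members called higher with all arrays, 6 were called on both days, and Dnajb14 was lower on both. Each day's fit held only replicates a and b or only c and d of every group. The share of all genes called within a day is not given here, so these counts are not a result about the members. The part of scan day, slide or culture in the differences between days was not tested.

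**Figure D3:**
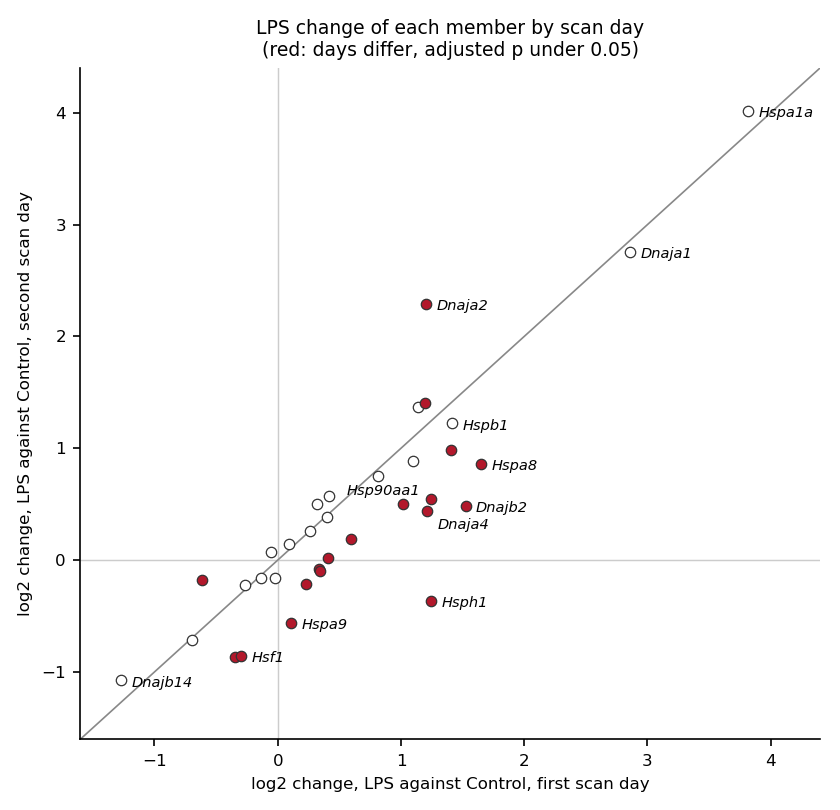
LPS change of each member on the second scan day (vertical, log2) against the first (horizontal, log2), with the line of equal change. Filled points differed between the days at an adjusted p under 0.05. Hsph1 lies at 1.25 and -0.37, Dnaja2 above the line, and Hspa1a and Dnaja1 near it at the upper right.

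The green channel, which per the labels held untreated RNA on every array, was compared between LPS arrays and Control arrays. Hspa1a was the 1 member of 35 called there, where 0.752% of all genes were. Its median green signal was 961, 965, 290 and 396 on the LPS arrays, against 269, 262, 159.5 and 197 on the Control arrays. On each slide the LPS array was the brighter one. The green change was 1.91 ± 0.301, or 3.75-fold (adjusted p = 0.00201), and the red signal alone rose by 5.83, against 3.92 for the ratio. Dnaja1 was lower in green by 0.75 (log2 change -0.75, adjusted p = 1.7e-06) at less than 2-fold, and its red signal alone rose by 2.07. Over all members the median green change was 0.06, against 0.03 over all genes. The part of the green signal in the ratios of Hspa1a and Dnaja1 was not tested. Both were called in red alone and in the ratio.

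**Figure D4:**
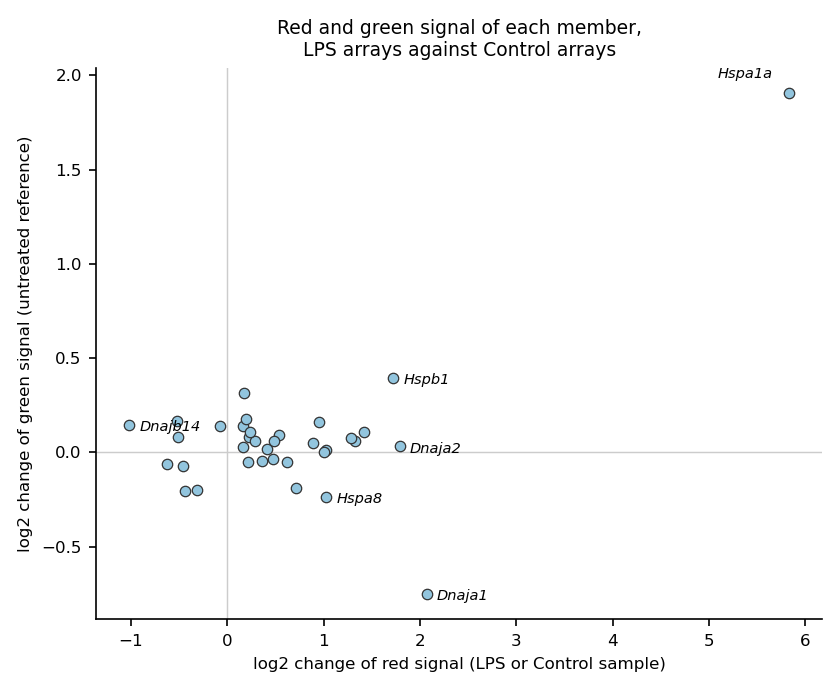
Change between LPS arrays and Control arrays of the green signal of untreated reference RNA (vertical, log2) against that of the red signal (horizontal, log2) for the 35 members. Hspa1a lies alone at 5.83 in red and 1.91 in green, Dnaja1 lies at -0.75 in green, and the other members lie closer to 0 in green.

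After heme-albumin, no member changed by 2-fold at either dose. At 50 µM, 0 members were called, where 0.368% of all genes were, and 1 had an adjusted p under 0.05, where 3.52% of all genes did. At 200 µM, 0 were called, where 3.03% of all genes were. At 200 µM, 5 members were higher and 4 lower at an adjusted p under 0.05, that is 14.3% and 11.4% of members, where 10.8% and 12.0% of all genes were. The members' median change at 200 µM was 0.07, against -0.02 over all genes. By limma, an unadjusted p under 0.05 was reached by 7 members at 50 µM and 11 at 200 µM. The share of all genes under that unadjusted threshold was not counted, so these counts cannot be read as particular to the members. A linear model without moderation also called 0 members at either dose.

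Hspa1a rose at both doses. It read 0.06, 0.16, 0.07 and -0.09 in untreated cells, 0.47, 0.30, 0.36 and 0.67 at 50 µM, and 0.73, 0.55, 0.77 and 0.88 at 200 µM. The untreated arrays lay below all others, and the 2 doses overlapped. The change against Control was 0.40 ± 0.0857 at 50 µM (adjusted p = 0.0161) and 0.68 ± 0.0857 at 200 µM (adjusted p = 4.06e-05). The value at 200 µM was 0.27 after normexp (adjusted p = 0.0627), and in red alone 0.76 (adjusted p = 0.102). At 50 µM it was 0.27 after normexp (adjusted p = 0.193), and it did not pass without replicate a (0.40, adjusted p = 0.143), c (0.44, adjusted p = 0.117) or d (0.28, adjusted p = 0.119).

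Hspb1 read 0.45, 0.15, 0.17 and 0.12 in untreated cells, 0.47, 0.32, 0.50 and 0.25 at 50 µM, and 1.30, 0.94, 0.62 and 0.87 at 200 µM. The untreated and 50 µM arrays overlapped, and the 200 µM arrays lay above both. The change at 200 µM was 0.71 ± 0.137 against Control (adjusted p = 0.0017), and 0.14 after normexp (adjusted p = 0.392). Between 200 and 50 µM, Hspb1 was the 1 member with an adjusted p under 0.05 (0.55 ± 0.137, adjusted p = 0.0239), where 7.61% of all genes had one. That difference was 0.04 after normexp (adjusted p = 0.999) and 0.53 in red alone (adjusted p = 0.0814), and it did not pass without replicate a (adjusted p = 0.0586), b (adjusted p = 0.175) or d (adjusted p = 0.114). Between the doses 0 members were called, where 0.831% of all genes were. By limma 5 members had an unadjusted p under 0.05 between the doses, again without a count over all genes to set beside it. The linear model without moderation called 0.

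Dnajb4 had the largest change of any member at 200 µM, and its arrays are given for that reason, chosen after they were seen. It read -0.10, 0.21, 0.04 and -0.07 in untreated cells, 0.26, 0.34, 0.35 and 0.57 at 50 µM, and 0.35, 0.74, 0.91 and 1.10 at 200 µM. The untreated arrays were below all others and the doses overlapped. The change at 200 µM was 0.76 ± 0.138 (adjusted p = 0.00109). On the second scan day alone it was 1.02, past 2-fold, and on the first alone 0.49, which did not pass (adjusted p = 0.0753). In red alone it was 0.74 and did not pass either (adjusted p = 0.0528). At 50 µM it was 0.36 (adjusted p = 0.244).

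Bag3 and Dnajb12 rose at 200 µM by 0.30 (adjusted p = 0.00551) and 0.16 (adjusted p = 0.018). The 4 lower members were Ahsa1 at -0.35 (adjusted p = 0.00695), Hspa2 at -0.33 (adjusted p = 0.0235), Bag1 at -0.17 (adjusted p = 0.0235) and Hspa14 at -0.16 (adjusted p = 0.0223). Counted by leaving out 1 replicate letter of all groups, 4 members passed without d, 5 without b, and 6 without a or without c, against 9 with all arrays. After normexp the 2 that passed were Dnajb4 and Ahsa1, and in red alone they were Hspb1 and Hspa2. Hspa4 had 0.08 at 200 µM from its brightest probe (adjusted p = 0.62), whereas its dimmer probes gave 0.44 and 0.47. As the mean of a gene's probes, Hspa4 passed (0.33, adjusted p = 0.0261) and Bag1 did not (-0.14, adjusted p = 0.0578).

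Bag3 read -0.15, -0.22, -0.17 and -0.15 in untreated cells, -0.09, -0.07, 0.08 and 0.04 at 50 µM, and -0.01, 0.00, 0.33 and 0.16 at 200 µM. Both doses lay above all untreated arrays, and its change of 0.30 at 200 µM was 0.26 after normexp (adjusted p = 0.0698).

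Of the other members called after LPS, none passed the test at either dose of heme-albumin. Dnaja1 read 0.04, 0.05, 0.03 and 0.11 at 50 µM and -0.07, -0.05, 0.01 and 0.23 at 200 µM, overlapping the untreated arrays at both doses. Dnaja2 read -0.04, -0.07, -0.02 and -0.13 at 50 µM and -0.12, -0.03, 0.14 and -0.14 at 200 µM, wholly above the untreated arrays at both doses. The change of Dnaja2 at 200 µM was 0.15 (adjusted p = 0.673).

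Dnajb1 read 0.00, -0.04, 0.05 and 0.03 at 50 µM and -0.06, -0.06, 0.06 and -0.03 at 200 µM. Dnajb6 read 0.09, 0.05, 0.02 and 0.09 at 50 µM and 0.20, 0.13, 0.13 and 0.13 at 200 µM. Dnajb1 overlapped its untreated arrays at both doses, and Dnajb6 lay below them at 50 µM and overlapped them at 200 µM. Dnajb2 read 0.04, 0.11, 0.08 and -0.11 at 50 µM and 0.48, 0.41, 0.40 and 0.23 at 200 µM, above all untreated arrays at 200 µM. Dnajb14 read 0.35, 0.18, 0.12 and 0.09 at 50 µM and 0.11, 0.00, -0.29 and -0.18 at 200 µM. It lay above the untreated arrays at 50 µM and on both sides of them at 200 µM.

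Hspa8 read 0.04, 0.04, 0.12 and 0.04 at 50 µM and 0.01, -0.11, 0.11 and 0.18 at 200 µM. Chordc1 read 0.21, 0.07, 0.16 and 0.00 at 50 µM and 0.32, 0.18, 0.30 and 0.13 at 200 µM. Both overlapped their untreated arrays at both doses. Of the Hsp90 genes, Hsp90aa1 read -0.30, -0.12, -0.02 and 0.06 at 50 µM and -0.19, 0.09, 0.32 and 0.33 at 200 µM. Hsp90ab1, with replicate a dropped as an outlier spot at both doses, read 0.04, -0.14 and -0.11 at 50 µM and 0.11, -0.08 and 0.04 at 200 µM. Both Hsp90 genes overlapped their untreated arrays.

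The heat shock factors also overlapped their untreated arrays at both doses and did not pass the test. Hsf1 read -0.14, -0.05, -0.02 and -0.06 at 50 µM and 0.00, -0.06, 0.04 and 0.09 at 200 µM. Hsf2 read -0.02, 0.02, 0.07 and -0.07 at 50 µM and 0.18, 0.09, 0.15 and -0.01 at 200 µM.

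For Hsph1 the outcome of the test differed with the arrays that gave the spread. At 200 µM it read 0.53, 0.46, 0.33 and 0.39, against -0.08, 0.06, -0.04 and -0.08 in untreated cells. All 4 heme-albumin arrays were above all untreated ones, yet the change of 0.46 ± 0.317 had an adjusted p of 0.341 in the fit of all 16 arrays, which includes the LPS arrays on which Hsph1 was split. Fitted on the 8 arrays of the pair alone it was 0.46 ± 0.0551 with an adjusted p of 0.000514, and Dnaja4 (0.43, adjusted p = 0.00233), Dnajb2 (0.29, adjusted p = 0.00851) and Hspa9 (0.20, adjusted p = 0.014) also passed there. In the fit of all 16 arrays after normexp Dnaja4 was 0.11 (adjusted p = 0.742). At 50 µM, where Hspa1a alone passed in the fit of all 16 arrays, the fit on the pair's 8 arrays passed others too. These were Dnajb4 (0.36, adjusted p = 0.0413), Dnajb12 (0.15, adjusted p = 0.0392) and Bag1 (-0.13, adjusted p = 0.0464). Across all 35 members the 200 µM arrays lay wholly above the untreated ones for 11 and wholly below for 5, where 15.9% and 19.8% of all genes did so. At 50 µM these counts were 6 and 5, where 8.74% and 10.4% of all genes did so.

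**Figure D5:**
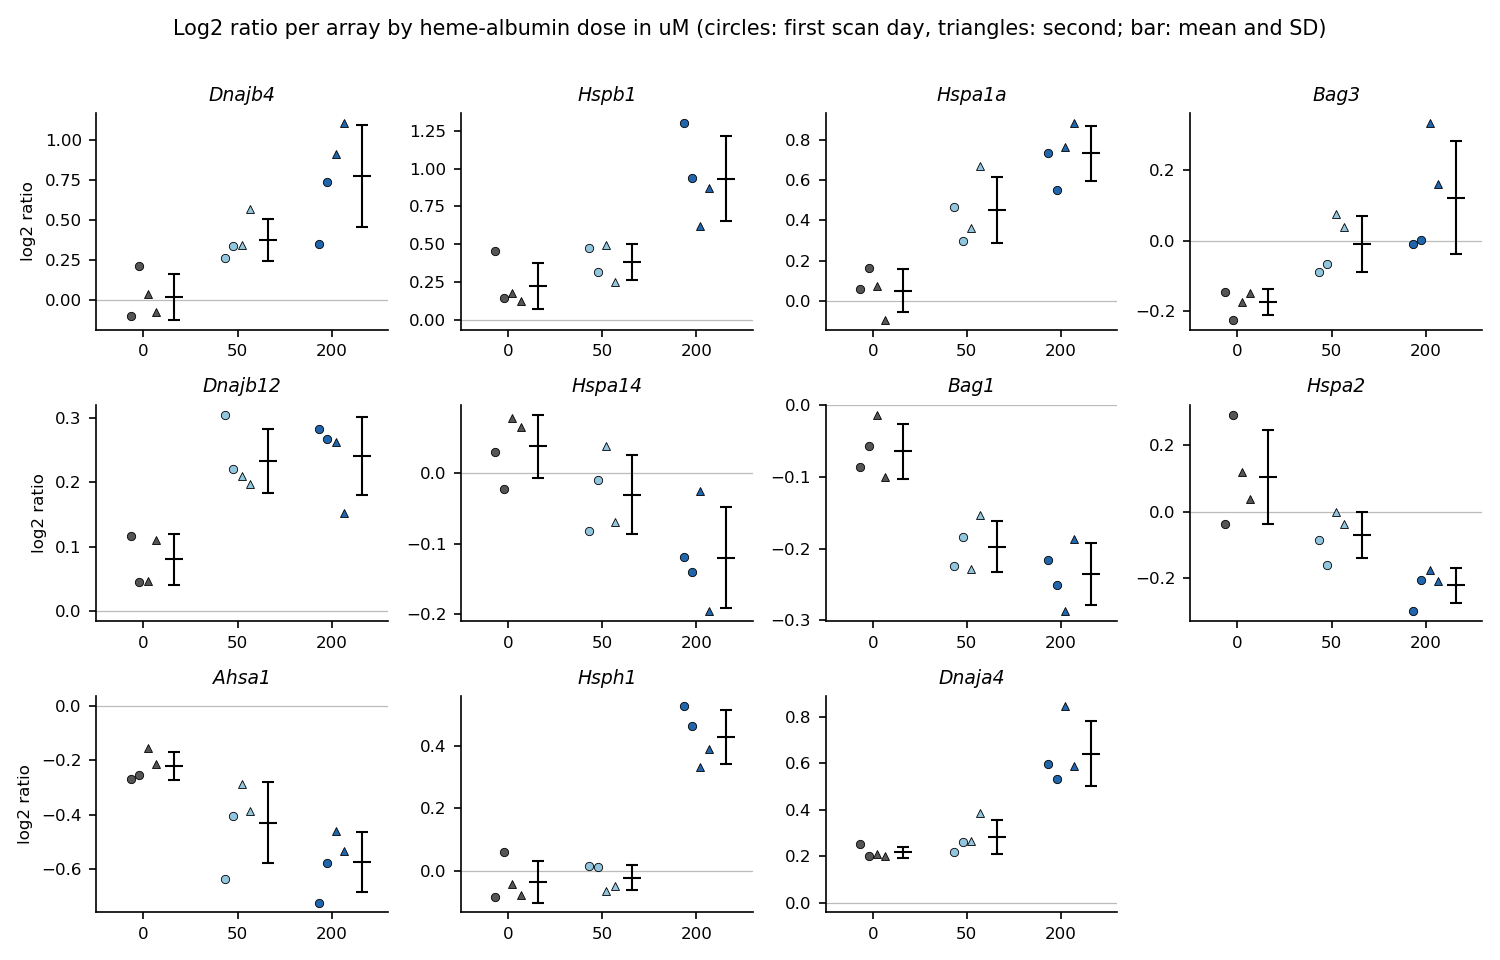
Log2 of red over green on each array for 11 members at 0, 50 and 200 µM heme-albumin, with circles for the first scan day, triangles for the second, and the mean ± SD beside them. Dnajb4, Hspb1 and Hspa1a lie higher at 200 µM than untreated, and Ahsa1, Hspa2, Bag1 and Hspa14 lie lower at 200 µM than untreated.

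Set against LPS directly, the heme-albumin arrays were lower for most of the members that LPS raised. At 200 µM, Hspa1a, Hspa8, Dnaja1, Dnaja2, Dnajb1, Dnajb6 and Chordc1 were called lower and Dnajb14 higher than in LPS cells, that is 7 and 1 of 35 members, where 13.6% and 16.8% of all genes were. At 50 µM, 10 were called lower and 1 higher, where 13.9% and 16.7% of all genes were. The log2 difference of Hspa1a from LPS was -3.23 ± 0.0857 at 200 µM and -3.52 ± 0.0857 at 50 µM, and that of Dnaja1 was -2.90 ± 0.0738 and -2.87 ± 0.0738. Dnajb14 was the higher one at both doses, by 1.09 at 200 µM and 1.36 at 50 µM. At 200 µM its difference was under 2-fold after normexp (0.86), without background subtraction (0.87), in red alone (0.96), on the second scan day alone (0.86) and without replicate b (0.98). Both comparisons share the LPS arrays. Hspb1 (-0.61 ± 0.137 at 200 µM) was called lower at 50 µM (-1.16) and not at 200 µM. On the second scan day alone, Hspa8 (-0.74) and Chordc1 (-0.84) were under 2-fold against LPS at 200 µM. At 50 µM the same held on that day for Hspa8 (-0.80), Hsp90aa1 (-0.58), Hspb1 (-0.997), Dnajb2 (-0.64) and Chordc1 (-0.98).

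The chaperones that are not members were read from lists by role. Of 8 subunits of the cytosolic chaperonin TRiC, 1 was called higher after LPS, Cct3 (1.17 ± 0.0532), with a list median of 0.08 (0.23 to 0.28 under 3 other scalings), and of 6 prefoldin subunits none was. The prefoldin median was -0.03, and positive under 3 other scalings (0.07 to 0.13). Of 15 further Hsp90 cochaperones 1 was called lower, Fkbp5 (-1.33 ± 0.151), an immunophilin known as a glucocorticoid target. Among 21 further Hsp70 cochaperones 1 was called higher, Dnajc19 (1.63), and 2 lower, Dnajc9 (-2.29) and Bag5 (-1.23). In the endoplasmic reticulum list 1 of 17 was called, Hspa5 (BiP, 1.70 ± 0.105). Among 10 further genes of the response to proteotoxic stress 4 were called higher, among them Cacybp (1.35) and the polyubiquitin gene Ubb (1.24). The list medians after LPS were -0.15 for the Hsp90 cochaperones and 0.10 for the Hsp70 cochaperones. They were 0.34 for the endoplasmic reticulum list and 0.36 for the proteotoxic stress genes, near the 0.39 of the members. After 200 µM heme-albumin the 1 called gene in these lists was Sqstm1 (p62, an autophagy receptor), at 1.13 ± 0.106 (adjusted p = 2.36e-06). It was also called after LPS (1.05 ± 0.106, adjusted p = 3.02e-07), and its difference between 200 µM heme-albumin and LPS was 0.08 ± 0.106 (adjusted p = 0.496).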

How the data were processed

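Two-colour Agilent arrays of 16 samples were analysed, 4 in each of the LPS, 50 µM heme-albumin, 200 µM heme-albumin and Control groups. Per the file headers, the deposited LogRatio is the log10 ratio of red (Cy5) to green (Cy3) after background subtraction and a linear and lowess correction of dye bias, made with Agilent Feature Extraction 10.7.3.1 (a version also in the submitters' processing notes). Spot intensity in each colour was deposited as median and processed signal, per the file headers. Per the labels, the authors ran an ANOVA on the log10 ratios without normalising again and applied a 2-fold filter afterwards. The deposited table of processed values holds the same log10 ratios (largest difference 0).

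Spots of control type or marked as outliers were removed, and 0 spots were saturated. Of 43020 spots that were not controls, 39429 probes were averaged, 27234 were named through their accession and the RefSeq gene list for mouse assembly GRCm38.p6, and 21458 passed the filter: red signal well above background on every array of some group. The brightest such probe stood for its gene, which left 12759 genes. The log2 form of the ratios entered a linear model in limma 3.58.1 under R 4.3.3, through lmFit and eBayes, with 1 mean per group, the 16 arrays together and no block, with Benjamini-Hochberg adjustment over all genes, and the code was tested on simulated data. Precision is limited by 4 arrays per group. Python 3.11.15, Biopython 1.88, matplotlib 3.10.9 and the R packages jsonlite 2.0.0 and data.table (version 1.17.8) were also used.

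The members and all lists were chosen with earlier results of these data known. Every array's values are given for members called against Control and for Hspa1a, Hspa8, Hsp90aa1, Hsp90ab1, Hspb1, Dnajb1, Bag3, Hsf1 and Hsf2. Up to 3 called genes per other list are named, those with the largest change, apart from a gene that is not reported here. Exceptions are named where they stand. Whether replicate letters, which are also slides, pair the arrays was checked by correlating deviations from the group means within a letter: for LPS and Control these were 0.115, 0.0981, 0.102 and 0.112, so that not every pair passed 0.1. In the other comparisons every pair did, from 0.103 to 0.502, so that the letters pair those arrays. The fit without a block, set as the main one, was kept, since the block changed no call of a member. Alternatives were other background corrections, the red channel alone, centring, probe filters, the mean of a gene's probes, outlier spots kept, replicate and scan day blocks, each scan day alone, an unmoderated linear model, the compared arrays alone, and leaving out each replicate.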

Additional observations from a re-analysis of the deposited data

Results flagged for a closer look

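Among 136 sets of 4 arrays, each a member in a group, 6 held an array far from the other 3 by Dixon's test, where chance alone gives about 1 in 20. Hspa8 at 50 µM heme-albumin read 0.12 on replicate c, against 0.04 on each other array. Hsp90ab1 read 0.21 on Control replicate b, with the others between -0.08 and -0.06. Hspb1 read 0.45 on Control replicate a, with the others between 0.12 and 0.17. Hspe1 read -0.0051 on Control replicate a, with the others between 0.07 and 0.08. Dnajb6 at 200 µM read 0.20 on replicate a, with the others at 0.13, and Dnajb12 at 200 µM read 0.15 on replicate d, with the others between 0.26 and 0.28. The green signal of untreated reference RNA, which the comparisons do not test on its own, was higher for Hspa1a on LPS arrays than on Control arrays by 1.91 on the log2 scale.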

How the results depend on the processing

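Of the member changes, 40 were followed through the alternatives: all 29 that were called, over the 6 comparisons, and 11 after heme-albumin that had an adjusted p under 0.05 at less than 2-fold. None of the 40 turned its sign under any alternative run. Among the members that did not pass, 7 turned their sign under some alternative after LPS (Hspa9, Hspa4, Hsph1, Hspe1, Dnajc5, Bag1 and St13), 12 at 200 µM and 10 at 50 µM. After normexp background correction 15 of the 40 were no longer past the threshold they had passed, in red alone 13, without background subtraction 7, on the second scan day alone 16 and on the first 8. The 10 members called after LPS became 7 on the second scan day alone and 15 on the first, and 9 to 12 when a replicate was left out. After 200 µM heme-albumin 1 member (Dnajb4) was called on the second scan day alone, against 0 with all arrays. Members with an adjusted p under 0.05 at 200 µM numbered 2 after normexp, 2 in red alone and 4 on the first scan day alone, against 9, and 4 to 6 when a replicate was left out. Called members between 50 µM heme-albumin and LPS numbered 6 on the second scan day alone, against 11. Members whose LPS change differed between scan days numbered 11 after normexp and 9 to 15 when a replicate was left out, against 18. Apart from the counts over all genes given below, these are counts of members alone, without the share of all genes under the same alternative. The causes were not tested. Leaving out a replicate or a scan day also leaves fewer arrays. Over all genes, 151 were called at 200 µM after normexp and 228 without background subtraction, against 386, and 19 and 28 at 50 µM, against 47. With the replicate letter as a block, 10 members were called after LPS and 0 at either heme-albumin dose, as without it, and it changed no other 2-fold call of a member. At adjusted p under 0.05 and any size, 26 members passed after LPS with the block, against 25 without it (Dnajc5). Centring left the values as they were, since each array's median ratio was 0. Between scalings the median LPS change ran from -0.09 to -0.03 over all genes, and from 0.39 to 0.42 over the members. Dim probes limit the fold changes of genes near background.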
